A study of Rattus norvegicus with 12 samples.

Results

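Collagens and the other proteins of the connective tissue matrix form the bed through which mammary ducts grow. The 39 genes described here were chosen by name: 5 fibrillar collagen chains, 5 chains of type VI and fibril-associated collagens, 10 basement membrane genes, 7 elastic fibre genes, 4 small leucine-rich proteoglycans and 8 adhesive, matricellular and other matrix proteins. On the arrays, 36 of the 39 had a probe of their own name, out of 26456 named genes, and all 36 were among the 20199 genes tested. No probe was named for Hspg2, Lama2 or Lamb1, all of the basement membrane group, which leaves 7 of its 10 genes.

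The samples were lumbar mammary glands (4th and 5th pair, visible lymph nodes removed) of Wistar rats, 1 array per rat and 3 rats in each of 4 groups. NP rats came from mothers given a diet with 17.0% protein throughout pregnancy, and LP rats from mothers given one with 8.8% protein, a model of growth restriction before birth. Litters of both groups were reduced to 6 females, suckled for 21 days and then received standard chow, so that diet differed only before birth. Glands were taken at day of life 21, at weaning, or at day 28, which gives the groups NP d21, LP d21, NP d28 and LP d28. The slide changed with the day, with 1 slide for each, and the effects of day and of slide cannot be told apart. The study asked whether the maternal diet alters gene expression in the gland at each day. Here that question is put to the matrix genes, together with the difference between the days.

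Fibroblasts secrete most of the matrix of the gland. Type I, III and V collagens assemble into the fibrils that give connective tissue its strength, and type VI, XII and XIV collagens attach to them. Type IV collagen, laminins and nidogens build the basement membrane, the thin sheet under epithelium and around vessels and fat cells. Elastic fibres are made of an elastin core that is laid down on fibrillin microfibrils with the help of fibulins and is cross-linked by lysyl oxidases.

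Sequences of 3 kinds are shown. The probes among them were not the brightest of their genes and did not enter the gene-level tests. The third stretch is genomic and was not measured. The first is a probe of Eln (elastin), which hybridises within the coding sequence, at chr12:23067308-23067449 of rn4, the rat build used in the array annotation. Its 60 bases map to a span of 142 bases in the genome. The capitals mark a run of alanine codons followed by a lysine codon, the kind of stretch through which elastin chains are cross-linked. The second is a probe of Col4a1, the alpha 1 chain of type IV collagen, at chr16:83146135-83146194 of rn4. Its capitals mark the recurring glycine codons, 6 in all and 1 in each triplet of codons, which encodes the repeat of the collagen helix. The third is the stretch of 76 bases between the start sites of Col4a1 and Col4a2, which lie head to head and are read away from each other, at chr16:84885521-84885596 of GRCr8 (RefSeq), written in the direction of Col4a1.
Eln probe: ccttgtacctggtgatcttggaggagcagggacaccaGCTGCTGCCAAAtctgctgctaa
Col4a1 probe: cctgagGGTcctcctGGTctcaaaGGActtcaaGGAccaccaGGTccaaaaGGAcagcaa
Col4a1 to Col4a2: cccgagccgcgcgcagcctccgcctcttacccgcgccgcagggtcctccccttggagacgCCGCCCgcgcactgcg
The capitals in the shared stretch mark its single match to GGGCGG, the letters of a GC box, searched on both strands and found here as CCGCCC. The same letters were present in the 76 bases before the start of 18.1% of 33469 RefSeq promoters. The match is a description of the letters and no evidence that a factor binds there.

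Values are log2 signals relative to the 75th percentile of the array, so that 0 is the signal of the gene spot at that percentile and 1 unit is a doubling. The level of one probe was not compared with that of another. Between 74.8% and 79.6% of gene spots were well above background on each array, and no spot was saturated. Of the 36 genes, 35 exceeded the scanner's background threshold on every array, and Thbs1 did so on 10 of 12. Over the arrays, the mean of 9 fat cell markers varied between 3.03 and 3.58 and that of 9 luminal epithelial markers between -0.02 and 2.08. The 9 fibroblast markers tested had a list mean between -0.51 and 0.04. In whole tissue, fewer cells of a type and less RNA per cell cannot be told apart.

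A pair of arrays stood apart. LP d21 6a had the lowest median correlation with the other arrays over all genes (0.960, against 0.974 to 0.989). Its lymphocyte markers had a mean of -5.45, against -0.60 to 0.72 elsewhere, and its mean over the 36 matrix genes was 2.48, next to 2.44 on LP d21 7c. NP d28 4f stood apart in the matrix genes themselves. Its mean over the 36 genes was 1.46, against 2.11 to 2.48 on the other 11 arrays. It was the lowest of the 12 arrays for 28 of the 36 genes, and for 20.8% of all genes tested. Against the median of the other arrays, Lum (lumican, a fibril-binding proteoglycan) differed by -2.10, Fbn1 (fibrillin 1) by -1.91 and Fn1 (fibronectin) by -1.85. Dcn (decorin) differed by 0.11, Thbs2 by 0.11, Col1a2 by 0.05 and Fbln1 by 0.82, so that a few matrix genes were not low on this array. The same array had the lowest means of the 8 cell division markers (-2.87, against -1.08 to -0.27) and of the 7 basal and myoepithelial markers (-2.18, against -1.21 to 0.61). Its fibroblast marker mean was -0.51, against -0.43 to 0.04 elsewhere. The part of these differences in the matrix results was not tested. For the 36 genes the values without this array are given where it moved a result.

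**Figure D1:**
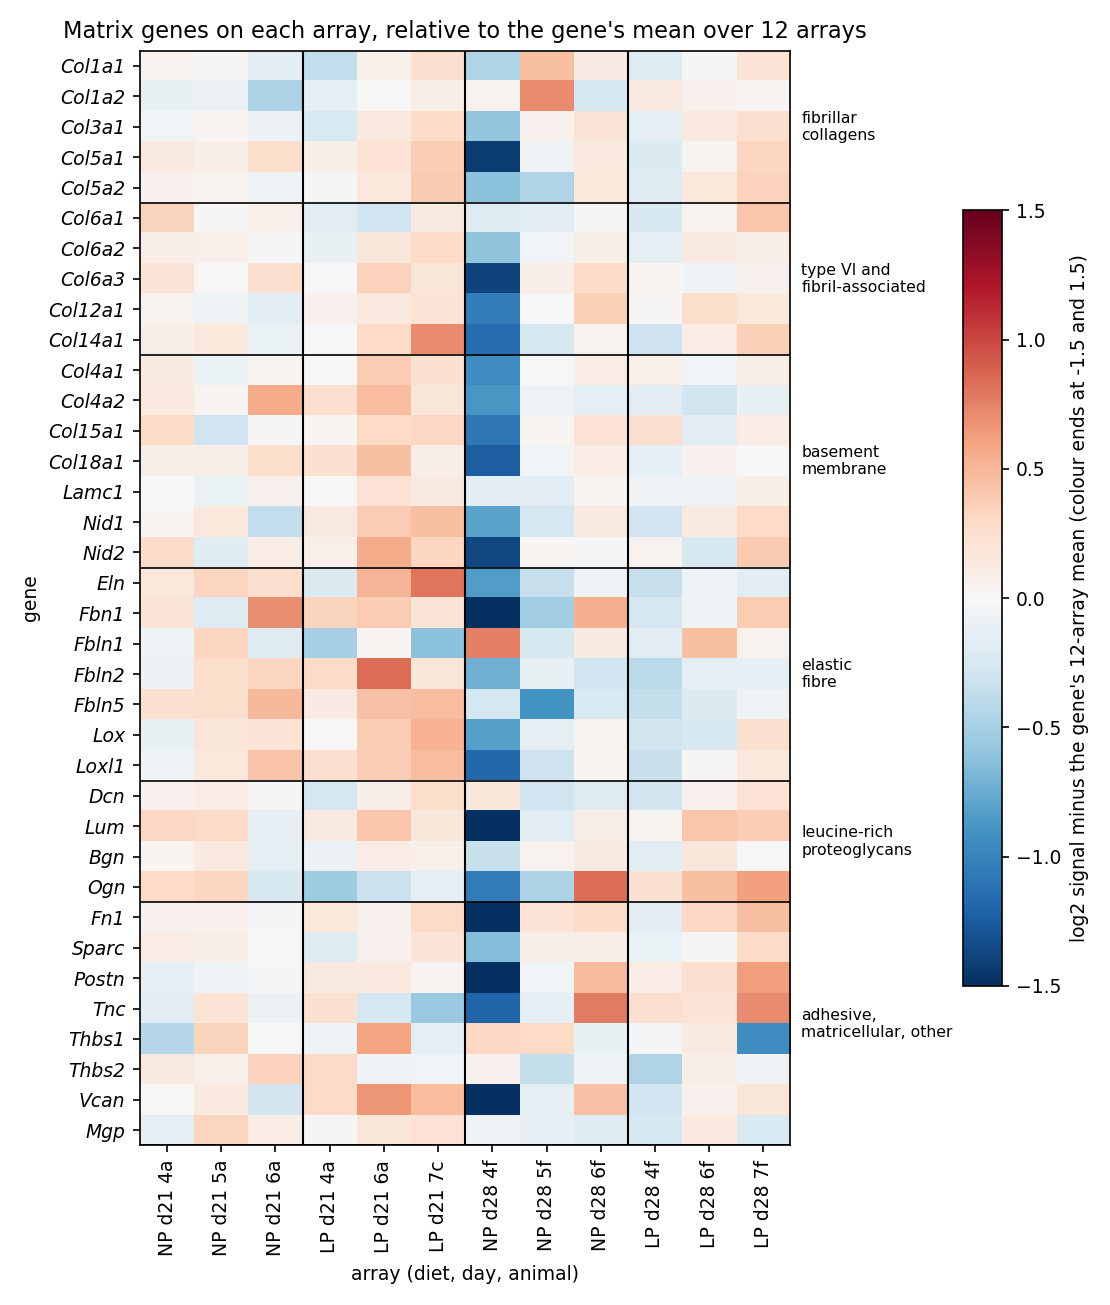
Matrix genes (rows, by class) on the 12 arrays (columns, by diet, day and animal); colour is the log2 signal minus the mean of the gene over the 12 arrays, with colours ending at -1.5 and 1.5. The column of NP d28 4f is blue for most genes, and the elastic fibre rows are mostly red at day 21 and blue at day 28.

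The clearest difference between the days lay in the elastic fibre genes. Over both diets, 1 of the 36 matrix genes passed an adjusted p of 0.05 between day 28 and day 21, against a background of 1.93% of all genes tested (limma, Benjamini-Hochberg over 20199 genes). This was Fbln5, which fell by 0.67 on the log2 scale. Without adjustment 7 of the 36 were lower at day 28 at p under 0.05, against 8.60% of all genes, and no matrix gene was higher. The 7 lower genes were Fbln5, Fbln2, Eln, Loxl1 and Lox of the 7 elastic fibre genes, Col4a2 of the basement membrane and Mgp. Without NP d28 4f, 8 were lower, against 9.22% of all genes in that fit. Without NP d28 6f, 13 were lower and 1 higher, and the share of all genes was not taken for that fit. With all 12 arrays the median difference was -0.54 over the elastic fibre genes, -0.26 over the 7 basement membrane genes and -0.03 over the 5 fibrillar collagens, beside 0.02 over all genes tested. Over all 36 genes the median was -0.22, with 31 of 36 below 0. NP d28 4f weighed on these values. Without it the medians were -0.37 for the elastic fibre genes, -0.14 for the basement membrane, 0.09 for the fibrillar collagens and -0.11 over all 36 genes, with 11 of 36 above 0. Without both arrays that stood apart the median over the 36 genes was -0.07, with 12 above 0.

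Fbln5 (fibulin 5, which tethers elastin to cells and to microfibrils) was measured by a probe at chr6:126026588-126026647 of rn4. At day 21 its log2 signal was -0.88, -0.85 and -0.63 in NP rats and -0.99, -0.67 and -0.65 in LP rats. At day 28 it was -1.38, -2.01 and -1.34 in NP rats and -1.48, -1.32 and -1.17 in LP rats. Every day 28 array lay below every day 21 array, whichever the diet, and NP d28 5f lay farthest below. The mean was -0.78 ± 0.15 (SD, n = 6) at day 21 and -1.45 ± 0.29 at day 28, a difference of -0.67 (SE 0.13, limma adjusted p = 0.0379). The direction held in all 24 alternative settings, but without overlap between the days no left-out array could have reversed it. Other filters, probe rules and blocks left the difference at -0.67. With quantile normalization, normexp and the series table it was -0.68, -0.67 and -0.65. Over the 24 settings the limma adjusted p lay between 0.0284 and 0.0967. With 1 array left out it was 0.0400 to 0.0431 for the 3 NP d28 arrays and 0.0506 to 0.0967 for the other 9, so that the call was lost without any one of those 9.

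Eln, the core protein of the elastic fibre, gave 3.78, 3.94 and 3.87 in NP rats and 3.40, 4.13 and 4.42 in LP rats at day 21 (chr12:23076983-23077042 of rn4). At day 28 the values were 2.79, 3.27 and 3.54 in NP rats and 3.27, 3.56 and 3.46 in LP rats. The days overlapped through LP d21 4a, the lowest day 21 array. The difference was -0.61 (SE 0.18, limma adjusted p = 0.119), and without LP d21 4a the adjusted p was 0.0482. The coding probe shown above ranged from -2.82 to -1.97 at day 21 and from -3.24 to -2.88 at day 28, with no overlap. For that probe the difference was -0.72 (SE 0.15), with an adjusted p of 0.0416 over the 23211 probes tested by limma. That p was 0.0115 without LP d21 4a and 0.0590 to 0.105 without any other single array, which loses the call. The result of this probe was chosen for mention after its values were seen.

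The other elastic fibre genes are given together. Fbln2 (fibulin 2, a partner of elastin and of basement membranes) had 0.91 to 1.84 at day 21 and 0.27 to 0.88 at day 28, with no overlap, a difference of -0.60 (SE 0.15) and a limma adjusted p of 0.0758. The lysyl oxidases Loxl1 and Lox, which cross-link elastin and collagen, differed by -0.54 and -0.39, with adjusted p-values of 0.174 and 0.250. Fbn1, the main microfibril protein, differed by -0.54 with an SE of 0.33, by -0.25 without NP d28 4f and by -0.81 without NP d28 6f. Fbln1 (fibulin 1) alone of the 7 pointed the other way, at 0.33 (SE 0.20, adjusted p = 0.378). In all, 3 of the 36 genes had every day 28 array below every day 21 array, against 1.79% of all genes: Fbln5, Fbln2 and Col4a2.

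**Figure D2:**
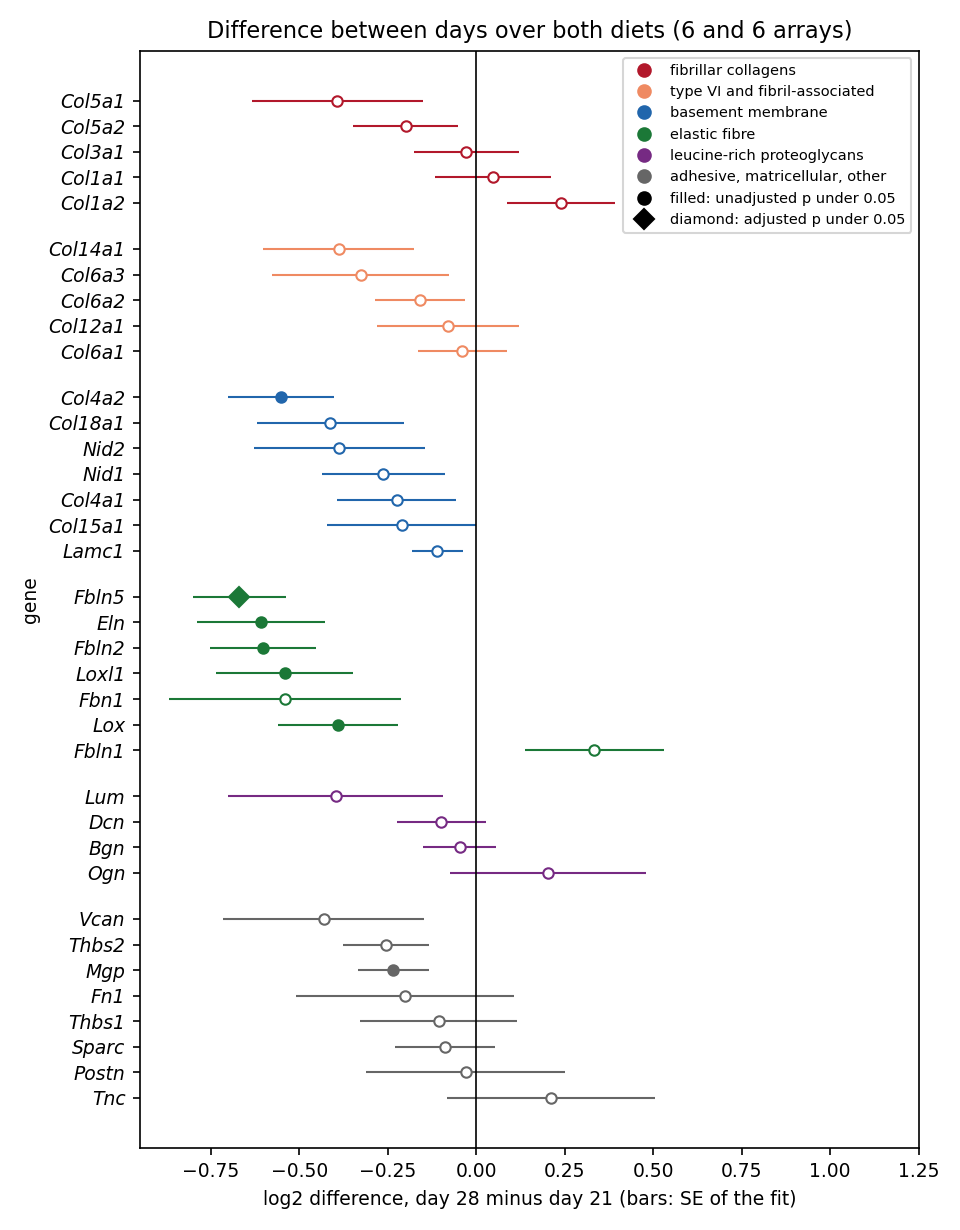
Log2 difference between day 28 and day 21 over both diets for each matrix gene (6 arrays per day), by class; bars are the standard error of the fit, filled symbols have an unadjusted p under 0.05 and the diamond an adjusted p under 0.05. The elastic fibre genes other than Fbln1 lie between -0.67 and -0.39, while Col1a1 and Col3a1 lie at 0.05 and -0.03.

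Markers of other cell types differed between the days as well. All 8 pericyte and smooth muscle markers had lower means at day 28 (list mean 0.27 to 0.58, against 0.56 to 1.12 at day 21), and 3 of them had an unadjusted p under 0.05, against 8.60% of all genes lower at that level. All 5 Schwann cell markers were lower (0.52 to 0.84, against 0.89 to 1.44), again 3 of them at p under 0.05. The 8 cell division markers were lower too (-2.87 to -0.55, against -1.08 to -0.27). Apart from NP d28 4f, their day 28 list means were -1.04 to -0.55, within the range of day 21. Of the 9 fibroblast markers tested, 7 were lower (-0.51 to -0.02, against -0.43 to 0.04), with a median difference of -0.09. Skeletal muscle markers, which ranged from -4.76 to 3.06 over the arrays, were lower for 9 of 9 genes. The 8 endothelial markers ranged from -0.49 to 0.01 at day 28 and from -0.22 to 0.12 at day 21, with 6 of 8 lower. Of these, 3 had an unadjusted p under 0.05, and 1 of them, Tie1, a receptor of vessel lining cells, fell by 0.63 (limma adjusted p = 0.0350). Other lists had higher means at day 28. All 8 lymphocyte markers did, none at an unadjusted p under 0.05. So did 5 of 7 macrophage markers (median 0.21, 3 at that level), 5 of 7 liver markers (median 1.30, 2 at that level) and 7 of 9 fat cell markers (median 0.15). Of all genes, 10.4% were higher at that level. The lymphocyte list mean was -5.45 on LP d21 6a and -0.23 to 0.41 on the other day 21 arrays, against -0.60 to 0.72 at day 28. Among the fat cell markers, Retn, the adipokine resistin, rose by 0.69 (limma adjusted p = 0.0379). Tie1 and Retn were named after their values were seen, and over the 24 alternatives their adjusted p lay between 0.0234 and 0.109 and between 0.0284 and 0.0963. The part of these cell types in the differences of the matrix genes was not tested.

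In the basement membrane, all 7 genes measured had negative differences between the days, from -0.55 to -0.11, and none passed the adjusted test. Col4a2, the alpha 2 chain that joins Col4a1 chains in type IV collagen, had the largest difference. Its log2 signal was 1.69, 1.59 and 2.10 in NP rats and 1.80, 2.01 and 1.72 in LP rats at day 21. By day 28 it was 0.67, 1.47 and 1.39 in NP rats and 1.38, 1.27 and 1.43 in LP rats. All 6 arrays of day 28 were below all 6 of day 21, by a mean of -0.55 (SE 0.15, limma adjusted p = 0.0954).

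Col4a1, which shares with Col4a2 the start region shown above, had 4.93, 4.69 and 4.84 in NP rats and 4.79, 5.18 and 5.02 in LP rats at day 21. At day 28 the values were 3.86, 4.80 and 4.90 in NP rats and 4.87, 4.76 and 4.90 in LP rats. The days overlapped, and only NP d28 4f was far below the rest. The difference was -0.23 (SE 0.17, limma adjusted p = 0.491), and the glycine repeat probe gave -0.41 (SE 0.21, adjusted p = 0.322). The other differences were -0.41 for Col18a1, -0.39 for Nid2, -0.26 for Nid1, -0.21 for Col15a1 and -0.11 for Lamc1. Without NP d28 4f they were -0.20, -0.16, -0.14, -0.01 and -0.09, that of Col4a1 was -0.06, and that of Col4a2 was -0.42 (adjusted p = 0.0783). With all arrays, a second probe of Nid2 gave -0.36 (SE 0.10, limma unadjusted p = 0.00591, adjusted p = 0.109). A second probe of Lamc1 gave -0.38 (SE 0.19, limma unadjusted p = 0.0740). Type XVIII and XV collagens are proteoglycans of basement membranes, the nidogens link laminin to type IV collagen, and Lamc1 is the gamma chain of most laminins.

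The main fibrillar collagens did not separate the days. Col1a1, the alpha 1 chain of type I collagen, had 6.94, 6.91 and 6.72 in NP rats and 6.53, 6.97 and 7.14 in LP rats at day 21. The day 28 values were 6.44, 7.34 and 7.02 in NP rats and 6.69, 6.91 and 7.09 in LP rats. The difference of 0.05 (SE 0.16) was far smaller than the spread within groups, and the highest and the lowest of the 12 values were both from NP d28.

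Col3a1, type III collagen, had 6.83, 6.90 and 6.78 in NP rats and 6.65, 7.02 and 7.14 in LP rats at day 21. On day 28 it had 6.28, 6.94 and 7.07 in NP rats and 6.72, 7.02 and 7.12 in LP rats, a difference of -0.03 (SE 0.15). Col1a2 stood at 0.24, and the minor fibril chains Col5a2 and Col5a1 at -0.20 and -0.39, none with an unadjusted p under 0.05. Among the fibril-associated chains, differences ran from -0.39 for Col14a1 to -0.04 for Col6a1, and none of the 5 passed. A second probe of Col14a1 gave -0.59 (SE 0.20, limma unadjusted p = 0.0157, adjusted p = 0.161). Other probes of Col1a1, Col5a2 and Col12a1 gave -0.14, -0.30, and -0.15 and -0.44, none with an unadjusted p under 0.05.

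The classes were also set against each other within each array. The difference between the mean of the fibrillar collagens and that of the elastic fibre genes has no meaning as a level, since probes differ in brightness, and is read only between arrays. It was 4.38 to 4.79 on the 6 arrays of day 21 and 4.85 to 5.31 on the 6 of day 28, with no overlap and a mean shift of 0.36. The gap between the days was 0.06, which leaving out an array can only keep or widen. When the mean of all probes of a gene replaced the brightest probe, the days overlapped by 0.05, and after quantile normalization the gap was 0.0057. The fibrillar collagens against the basement membrane genes gave 2.41 to 2.75 at day 21 and 2.59 to 2.99 at day 28, which overlap. Diet shifted the first difference by -0.01 and the second by -0.09. No test was made of these class means.

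**Figure D3:**
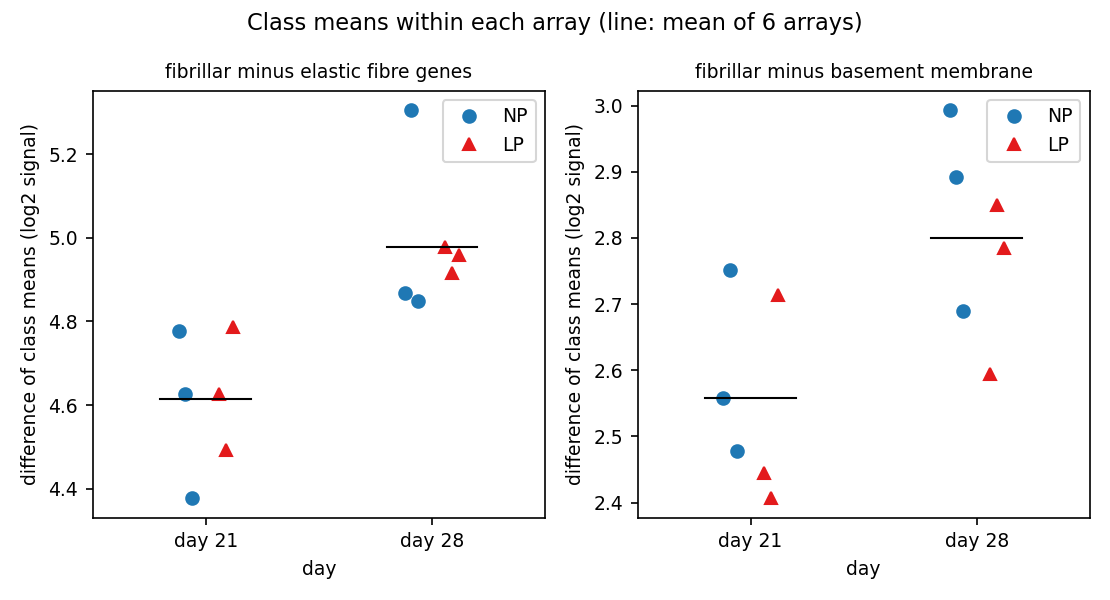
Mean log2 signal of the 5 fibrillar collagens minus the mean of the 7 elastic fibre genes (left) or of the 7 basement membrane genes (right) on each array, by day; circles are NP, triangles are LP and lines are means of 6 arrays. On the left all day 28 arrays (4.85 to 5.31) lie above all day 21 arrays (4.38 to 4.79), and on the right the days overlap.

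Among the proteoglycans and the adhesive proteins, Mgp alone had an unadjusted p under 0.05 between the days. Mgp encodes matrix Gla protein, an inhibitor of calcification, and differed by -0.23 (SE 0.10, limma adjusted p = 0.242). Dcn, a proteoglycan that decorates collagen fibrils, had 5.20, 5.25 and 5.16 in NP rats and 4.87, 5.23 and 5.40 in LP rats at day 21. Its day 28 values were 5.31, 4.84 and 4.94 in NP rats and 4.87, 5.20 and 5.36 in LP rats. The days and the diets overlapped throughout, with a difference between days of -0.10 (SE 0.13).

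Fn1, which cells assemble into the first matrix of a tissue, had 4.85, 4.84 and 4.76 in NP rats and 4.94, 4.85 and 5.07 in LP rats at day 21. On day 28 the signals were 3.09, 4.99 and 5.07 in NP rats and 4.62, 5.10 and 5.23 in LP rats. Apart from the value of NP d28 4f, all arrays lay within 4.62 to 5.23. The remaining genes had differences between -0.43 (Vcan, versican) and 0.21 (Tnc, tenascin C), and Sparc, which escorts collagen during secretion, stood at -0.09.

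Within each diet no matrix gene passed the adjusted test between the days (limma). In NP rats 5 of 36 were lower at an unadjusted p under 0.05, against 4.38% of all genes: Fbln5 (-0.79), Loxl1 (-0.66), Eln (-0.66), Col4a2 (-0.62) and Fbln2 (-0.55). In LP rats 3 of 36 were lower, against 5.19%: Fbln2 (-0.66), Fbln5 (-0.55) and Col4a2 (-0.48). The median over the 36 genes was -0.30 in NP rats and -0.15 in LP rats. Without NP d28 4f the NP median was -0.06, and Fbln5 (-0.89) and Col4a2 (-0.36) remained at an unadjusted p under 0.05 in NP rats, where 4.11% of all genes were lower. Without NP d28 6f the NP median was -0.56 and 15 genes had such a p, without NP d21 5a there were 2 and without NP d21 6a there was 1. In LP rats there were 8 genes without NP d28 4f, against 12.2% of all genes in either direction. There were 5 without NP d28 6f and 1 without LP d28 4f. For left-out arrays other than NP d28 4f the share of all genes was not taken. The difference between the diets in the change with day was tested as an interaction, given below.

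Between the diets no matrix gene differed detectably on either day. At day 21, 0 of 36 genes passed the adjusted test (limma) and 0 had an unadjusted p under 0.05, against 4.34% of all genes. Vcan had such a p (0.0278) when NP d28 4f was left out of the shared fit. The differences LP minus NP ran from -0.46 (Ogn, osteoglycin) to 0.51 (Vcan), with standard errors between 0.10 and 0.46. Their median was 0.10 beside 0.01 over all genes, and 29 of 36 were above 0. The direction of this median was not stable. Every NP array lay in row 1 of its slide, while on both days 2 LP arrays lay in row 2, and with the row as a covariate the median was -0.05, with 13 of 36 above 0. Without LP d21 6a it was 0.04, and without LP d21 4a 0.17. In 4 of 36 genes every LP array lay above every NP array, against 5.59% of all genes. These were Vcan, Fn1, Postn (periostin) and Col12a1, with differences of 0.51, 0.14, 0.18 and 0.20. The class medians were 0.17 for the basement membrane, 0.12 for elastic fibres, 0.10 for fibrillar collagens and -0.01 for the small proteoglycans. In the same comparison the 9 luminal markers all had higher means in LP (median 0.81, 2 with an unadjusted p under 0.05), as did 6 of 7 basal markers (median 0.87). All 8 lymphocyte markers had lower ones (median -2.22). Their list mean was -5.45 on LP d21 6a, 0.19 and -0.23 on the other LP arrays and 0.24 to 0.41 on the NP arrays. The part of these markers in the matrix differences was not tested.

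At day 28, 0 of 36 genes passed the adjusted test (limma). At an unadjusted p under 0.05, 0 were higher in LP, against 1.94% of all genes, and 0 were lower, against 6.05%. Among the less bright probes, which did not enter these counts, that of Bgn alone had such a p. It was higher in LP by 0.32 (SE 0.14, limma unadjusted p = 0.0490, adjusted p = 0.581). Here 31 of 36 differences were above 0, with a median of 0.29 beside -0.05 over all genes. The largest was that of Lum. Its log2 signal at day 28 was -1.04, 0.74 and 0.98 in NP rats and 0.94, 1.32 and 1.26 in LP rats. The groups overlapped through NP d28 6f, and NP d28 4f lay far below. The difference was 0.94 (SE 0.43, limma adjusted p = 0.577). Without NP d28 4f it was 0.31 (adjusted p = 0.865).

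The shift of the whole list was smaller without the same array, which was singled out because it was lowest in these genes. Without it the median over the 36 genes was 0.02, 20 of 36 differences were above 0, and again 0 had an unadjusted p under 0.05. Leaving out NP d28 6f instead, which kept NP d28 4f among 2 NP arrays, raised the median to 0.46, and 12 genes then had an unadjusted p under 0.05 and 0 an adjusted one. There was 1 gene at an unadjusted p under 0.05 without NP d28 5f and 1 without LP d28 4f. The share of all genes at that level was not taken without NP d28 6f, NP d28 5f or LP d28 4f. With the row on the slide as a covariate the median was 0.12, with 24 of 36 above 0. For Col1a1 and Col1a2 the differences with all arrays were -0.03 and -0.09. The 8 cell division markers, like most matrix genes, had higher means in LP at day 28 (8 of 8, median 0.86, and 0.19 without NP d28 4f). The 9 luminal markers did so too (9 of 9, median 0.53), and without that array 8 of 9 did (median 0.23). The part of these in the matrix differences was not tested.

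**Figure D4:**
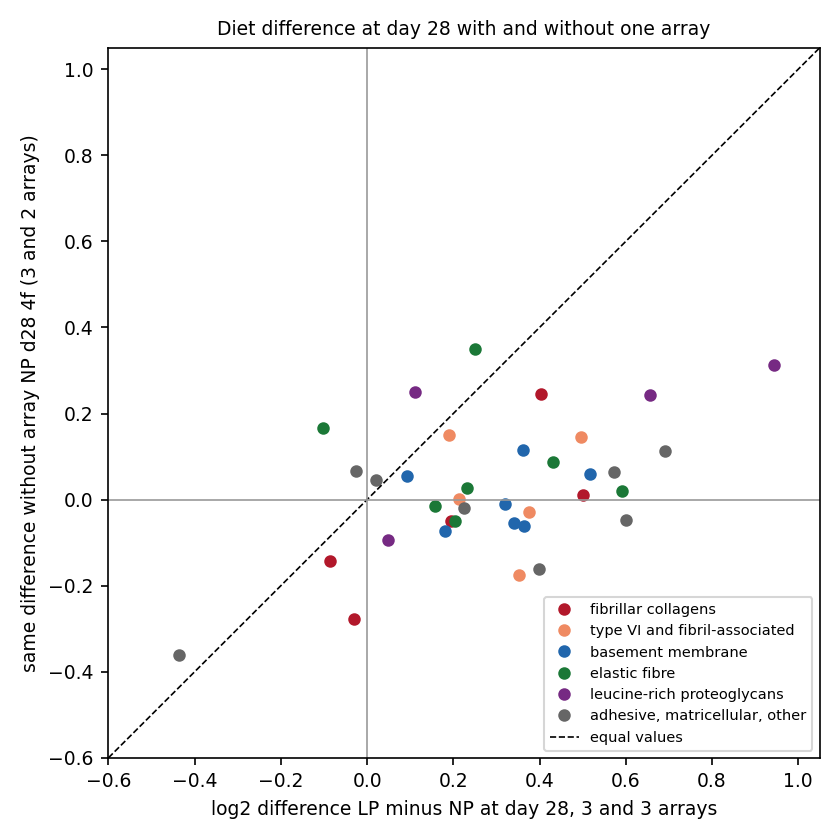
Log2 difference LP minus NP at day 28 for each matrix gene with all 6 arrays (horizontal axis) and without NP d28 4f (vertical axis), coloured by class; the dashed line marks equal values. Most genes lie below the line, with a median of 0.29 on the horizontal and 0.02 on the vertical axis.

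Over both days together, 0 of 36 genes passed the adjusted test (limma) and 0 had an unadjusted p under 0.05, against 11.8% of all genes. The median was 0.19 beside -0.02 over all genes. It was 0.05 without NP d28 4f and 0.04 with the row as a covariate. At an unadjusted p under 0.05 there were 10 genes without NP d28 6f, 2 without LP d28 4f and 1 without LP d21 4a. The share of all genes was not taken for these fits. The change of the diet difference between the days gave 0 of 36 adjusted and 0 unadjusted, against 2.26% of all genes. The largest was that of Ogn, a small proteoglycan of collagen fibrils. Ogn had 2.54, 2.56 and 1.99 in NP d21 and 1.70, 1.91 and 2.09 in LP d21. At day 28 it had 1.18, 1.77 and 3.07 in NP rats and 2.46, 2.69 and 2.84 in LP rats. The 3 NP d28 values enclosed the LP values. The change was 1.12 (SE 0.56, limma unadjusted p = 0.0719), which did not pass adjustment, and 0.71 (SE 0.46) without NP d28 4f. Over the 36 genes the median change was 0.16, and -0.10 without NP d28 4f, where Vcan (-0.67) had an unadjusted p of 0.0475. At that level there were 2 genes without NP d28 6f and 1 without LP d28 4f, again with no share of all genes taken. Lum, Ogn, Col4a2 and Fbln2 were singled out after their values were seen.

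The matrix genes varied in part together between rats of one group. For each gene the deviation of each array from its group mean was taken, and pairs of genes were correlated over the 12 arrays. These correlations are descriptions, and the points share arrays and their scaling. Over the 630 pairs the median r was 0.58, with a range from -0.85 to 0.98. Without NP d28 4f it was 0.34. Within classes the median was 0.80 for type VI and fibril-associated collagens, 0.66 for fibrillar collagens and for the basement membrane, 0.41 for elastic fibre genes and -0.04 for the adhesive and matricellular proteins. Without that array these became 0.56, 0.54, 0.41, 0.38 and 0.21.

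Against the mean of the 5 fibrillar collagens, 18 of the 31 other matrix genes had r above 0.7, or 58.1%, beside 7.13% of all other genes tested. On 11 arrays, without NP d28 4f, 7 of 31 did (22.6%, beside 2.96%). These 7 were Sparc (0.97), Dcn (0.95), Col14a1 (0.90), Col6a2 (0.87), Eln (0.76), Nid1 (0.72) and Lox (0.70). Dcn moved from 0.01 on 12 arrays to 0.95 on 11, and it alone of these 7 was not low on NP d28 4f. The reverse held in the basement membrane, where Col18a1 went from 0.77 to -0.08 and Col4a2 from 0.60 to -0.20. Some chains of one molecule also depended on it: Col4a1 and Col4a2 had r of 0.84 on 12 arrays and 0.41 on 11, Col6a2 and Col6a3 had 0.83 and 0.34. Others had higher values without it, with 0.73 and 0.82 for Col5a1 with Col5a2 and 0.47 and 0.59 for Col6a1 with Col6a2. Col1a1 and Col1a2 had 0.51 and 0.56, lower than the 0.91 and 0.80 of Col1a1 with Col3a1.

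**Figure D5:**
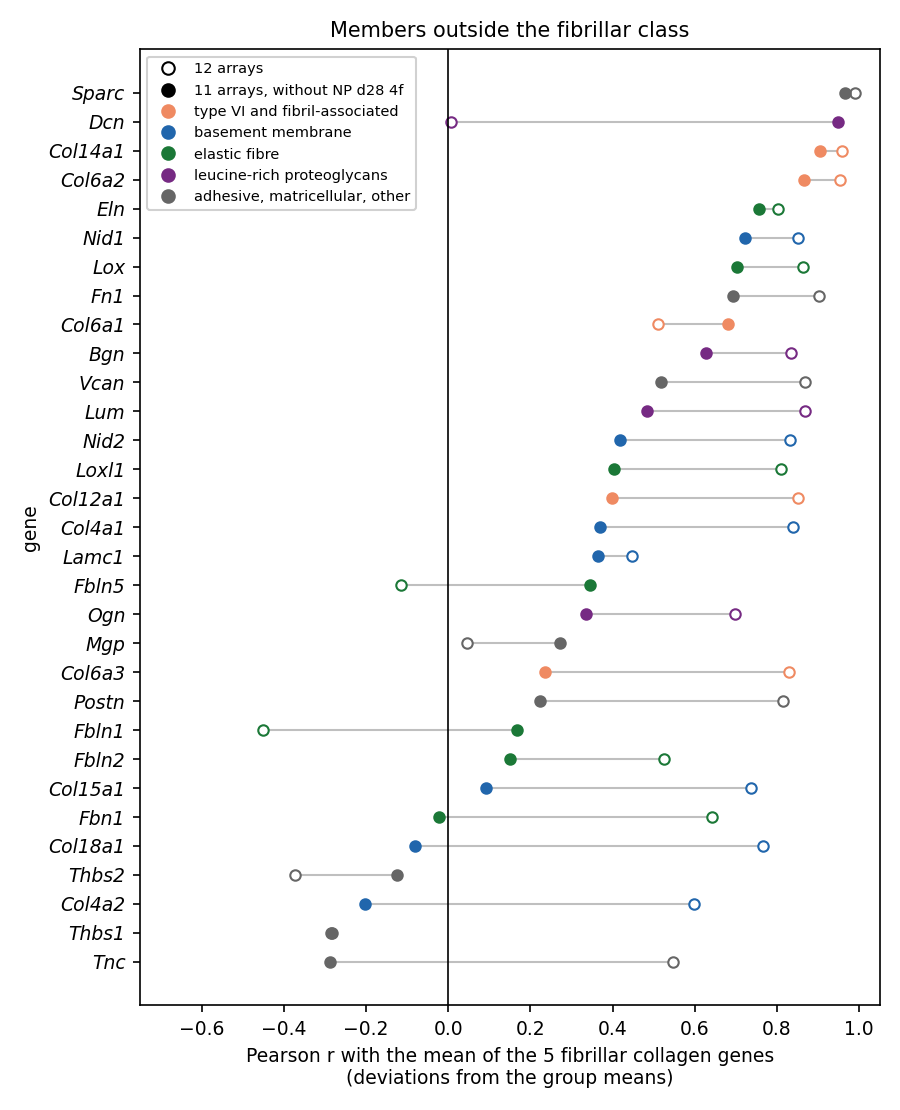
Pearson correlation of each matrix gene outside the fibrillar class with the mean of the 5 fibrillar collagens, from deviations from the group means on 12 arrays (open) and on 11 arrays without NP d28 4f (filled), coloured by class. Sparc, Col14a1, Col6a2 and Eln stay high, Dcn moves from 0.01 to 0.95, and most basement membrane genes move towards 0.

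The 5 genes outside the list with the highest r over 12 arrays were Nanos3 (0.97), Vapa (0.97), Prdx4 (0.97), Car15 (0.97) and Mfap2 (0.96). On 11 arrays they had 0.95, 0.91, 0.91, 0.92 and 0.87. Prdx4 is a peroxiredoxin of the endoplasmic reticulum and Mfap2 a microfibril protein. They were taken by rank over 20194 genes and 12 arrays only.

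Further matrix genes outside the list were counted in the same fit. Of 26 genes for folding, modification and processing of collagen, 1 passed an adjusted p of 0.05 between the days, against 1.93% of all genes. This was Loxl3, another lysyl oxidase, which fell by 0.63 (SE 0.13, limma adjusted p = 0.0401), with every day 28 array below every day 21 array. Its adjusted p was 0.0365 to 0.10 with 1 array left out, and in those fits under 0.05 only without NP d28 4f or NP d28 6f. The call was also lost with the replicate block (0.0558), the block of number within diet (0.0686), the row as a covariate (0.0566), normexp (0.0535) and no filter on dim probes (0.0648). Leaving out both arrays that stood apart lost it too (0.0662). In all 4 of the 26 were lower at an unadjusted p under 0.05, against 8.60% of all genes, among them Leprel2, a prolyl 3-hydroxylase (-0.46), Adamts2, which trims procollagen (-0.35), and Fkbp10, a collagen chaperone (-0.46), and 23 of 26 differences were below 0. Of 37 other matrix genes tested, 1 passed an adjusted p of 0.05, against the same 1.93%. This gene, Ltbp4, binds latent TGF-beta and takes part in elastic fibre assembly. Ltbp4 differed by -0.75 (SE 0.13, limma adjusted p = 0.0287), again without overlap. Its adjusted p lay between 0.0205 and 0.0722 over the alternatives, and was above 0.05 without NP d21 5a, NP d21 6a, any LP d21 array, NP d28 5f or LP d28 4f, with normexp (0.0572) and with the block of number within diet (0.0697). Without both arrays that stood apart it was 0.0662. At an unadjusted p under 0.05, 10 of the 37 were lower, against the same 8.60%, and 1 was higher, against 10.4%. The next were Col8a1 (-0.71), Ltbp2 (-0.71) and Col6a6 (-0.79), with adjusted p-values of 0.0608, 0.0682 and 0.0747. Chosen after their values were seen, the microfibril and elastic fibre genes Efemp2 (-0.48), Mfap2 (-0.51) and Fbn2 (-0.51) had adjusted p-values of 0.121, 0.163 and 0.177. Of 18 matrix receptors 0 passed the adjusted test (limma), and 3 had an unadjusted p under 0.05, against 19% of all genes in either direction. They were Itgb1 (-0.28), the beta 1 chain shared by most collagen-binding integrins, Itga5 (-0.40), the fibronectin receptor chain, and Itga10 (0.40).

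By diet, none of these 81 genes passed the adjusted test (limma). At day 21, 3 of the 81 had an unadjusted p under 0.05, against 4.34% of all genes. These were Leprel1 (0.83), Tll1 (0.44) and Ddr1 (0.73), a collagen receptor of epithelium, all with higher means in LP. At day 28, Ppib (0.30), Fkbp14 (0.57), Efemp1 (0.49) and Aspn (0.80) had higher means and Tgfbi (-0.59) a lower mean in LP at that level, against 1.94% and 6.05% of all genes. Over the 24 alternatives Tgfbi had such a p in all 24, Efemp1 in 17, Aspn in 12, Ppib in 11 and Fkbp14 in 10. In these settings the day 28 difference was -0.69 to -0.47 for Tgfbi and 0.27 to 0.69 for Efemp1. It was 0.41 to 1.18 for Aspn, 0.19 to 0.44 for Ppib and 0.28 to 0.83 for Fkbp14. Values without NP d28 4f alone are not given for these genes. In the main fit the limma adjusted p-values of the genes named by diet were 0.864 at day 21 and 0.577 at day 28.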

How the data were processed

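Total RNA from lumbar mammary glands of 12 rats was labelled with Cy3 and hybridised to 1-colour Agilent arrays, 1 rat per array. The deposited values are signal intensities of single spots, extracted, background-subtracted and detrended by the authors with Agilent Feature Extraction 10.7.3.1. The deposited series table holds ratios of the same signals to a constant of each array, with a column median of 1 and a largest relative deviation of 6.56e-05 from a constant multiple. The authors' analysis used an error-weighted model of commercial software, which was not repeated here.

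Each array's 75th percentile over gene spots (1451 to 2370 intensity units) was subtracted from its log2 signals, spots of 1 probe were averaged, and the brightest probe stood for a gene. A gene was tested when the scanner software called it well above background on 3 or more of the 12 arrays. Group means were fitted with limma 3.58.1 in R 4.3.3 (4 groups of 3), with Benjamini-Hochberg adjustment over 20199 genes. The number of arrays limits the precision, and p-values measure only the spread between these rats. No result of the authors' own comparisons was used.

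Values of every array were given for genes passing the adjusted test, for Col1a1, Col3a1, Col4a1, Eln, Fn1 and Dcn, and otherwise where said. Outside the list, the 4 genes with the lowest p of each further list and the 5 most correlated with the fibrillar collagens were named. The members and the further lists were chosen with earlier results of these data known. Alternatives were quantile normalization, normexp with an offset of 50, the series table, other filters and probe rules, blocks by replicate number, the row on the slide and leaving out each array. Leaving out both arrays that stood apart was added after the data were seen. The fit was tested on simulated data.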

Additional observations from a re-analysis of the deposited data

How the results depend on the processing

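Over the lists, 539 of 592 results under alternative settings stayed within the limits set for them, and 53 moved. The single gene passing the adjusted test between the days (Fbln5) became 0 with the deposited series table (adjusted p = 0.0502), with no filter on dim probes (0.0580), with the block of number within diet (0.0686) and without the 2 arrays that stood apart (0.0737), and 0 to 1 with 1 array left out. With normexp, Fbln2 (0.0407) took its place, as Fbln5 had 0.0835. The share of all genes at an unadjusted p under 0.05 was taken only with quantile normalization, normexp, the series table and without NP d28 4f. With quantile normalization 5.91% of all genes were lower at day 28 in NP rats, 5.32% in LP rats and 10.2% over both diets. In the main fit these shares were 4.38%, 5.19% and 8.60%. Higher in LP at day 28 were 2.8% with quantile normalization, 2.97% with normexp and 1.94% with the series table (main fit 1.94%). Over both days 5.23% were higher in LP with normexp (main fit 4.31%). Counts of matrix genes at that level moved as follows. LP against NP at day 21 went from 0 to 2 with the replicate block, 1 with only that day's arrays and 1 without both arrays (0 to 1 with 1 array left out). At day 28 it went from 0 to 3 with quantile normalization and to 1 with normexp, the series table, the filter on all 12 arrays, the trended robust fit or the replicate block (0 to 12). Over both days it went from 0 to 1 with normexp or the replicate block (0 to 10). Between days it went in NP rats from 5 to 8 with quantile normalization, 3 with only NP arrays and 3 without both arrays (1 to 15), and in LP rats from 3 to 5 with quantile normalization, 6 with the block of number within diet and 6 with only LP arrays (1 to 8). Over both diets it went from 7 to 12 with quantile normalization (5 to 14), and for the interaction from 0 to 1 without both arrays (0 to 2). The median LP against NP at day 28 was 0.016 without both arrays (0.016 to 0.46 with 1 left out), that between days in NP rats was -0.56 to -0.060, and that of the interaction -0.10 to 0.35, negative only without NP d28 4f or without both arrays. With the row as a covariate the diet medians went from 0.10 to -0.05 at day 21, from 0.29 to 0.12 at day 28 and from 0.19 to 0.04 over both days.

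Same-numbered arrays correlated in their deviations at -0.0648 to 0.384, not all above 0.1, and the numbers were not taken as pairs. The labels do not say whether a number marks a litter, and these correlations cannot exclude it. With the block of number within diet the call of Fbln5 was lost (limma adjusted p = 0.0686). The replicate block kept the call of Fbln5 (0.0426) and made none among the other 35 genes. Outside the list Loxl3 lost its call with it (0.0558) and Ltbp2 gained one (0.0397). With 3 rats per group, an exact test of 1 gene within a day cannot go below p = 0.1. The arrays give no depth, and only Thbs1 was near background.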
